A study of Pimephales promelas with 28 samples.

Results

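The comparison described here is liver of female fathead minnows (Pimephales promelas) exposed to phenanthrene for 48 h against liver of unexposed females held for the same time. Its members are the arrays whose label gives 48 h as the time point, which selected 10 of the 28 arrays of the series. Of these, 5 carry the label phenanthrene at 29 ng/L and 5 the label none at 0 ng/L, with the dose unit as the labels write it. All 10 arrays, and the 18 of 24 h and 72 h, come from females whose source is labelled sexually regressed, and total RNA of the liver was hybridised in 1 colour to Agilent arrays. The labels give no strain, age or tank, and they leave unsaid whether 1 array stands for 1 fish, so the p-values reflect only how far these arrays spread, which may be technical. The title of the series gives its purpose as following liver expression over 72 h of exposure. At the other times there were 4 control and 5 exposed arrays at 24 h, and 5 control and 4 exposed arrays at 72 h, at the same labelled doses.

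Phenanthrene is a polycyclic aromatic hydrocarbon found in crude oil, tar and combustion residues. The liver is the main organ in which fish oxidise and conjugate such compounds before they are excreted in bile, and many larger members of the class induce cytochrome P450 1A there through the aryl hydrocarbon receptor. The liver of a female fish also makes vitellogenin, the egg yolk precursor, under the control of oestrogen from the ovary. In bulk liver, fewer cells of a type and less RNA per cell cannot be told apart.

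None of these genes can be read by name from the files. The 15208 probes carry 11862 contig identifiers, 3309 gi numbers and 37 clone names, and 0 of them matched the 64593 genes of the reference table used here. They were compared with gene numbers, symbols, locus tags and accessions, which are other kinds of identifier, so matches were not to be expected. A list of 36 marker symbols for hepatocytes, red blood cells, pancreas and the aryl hydrocarbon response therefore found 0 probes, and the labelled tissue could not be checked against its markers. The results below are given by probe, and no function is assigned to any of them.

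The arrays of 48 h were uneven in quality, and exposed replicate 1, which carries the title Low22, stood apart from the other 9. Its control spots at the bright corners read 17.87 log2 units against 10.32 to 11.40 on the other arrays, and 201 of its spots were marked non-uniform against 0 to 7. The 75th percentile of signal ran from 151.0 units on control replicate 3 to 511.1 on exposed replicate 3. Between 8722 and 12278 probes were well above background on an array, a mark set by the scanner software for each spot. The 10 arrays lay on 4 slides, and slides 3 and 4 each held 2 control and 2 exposed arrays. Slides 3 and 4 held arrays of 48 h only and were scanned on the same day, while all other arrays of the series were scanned on another day. For the arrays of slides 3 and 4, time thus cannot be told apart from slide and scan day. Control replicate 1 lay on slide 2 and exposed replicate 5 on slide 5, without an array of the other group at 48 h. The fit was repeated without exposed replicate 1, and the values are given beside the main ones. At 72 h, exposed replicate 4 had the same signs of poor quality, with bright-corner spots at 19.004 log2 units and 498 non-uniform spots. The 72 h differences and the main count of unadjusted calls at 48 h are also given without it. Other p-values at 48 h keep it in their shared variance. At 24 h, exposed replicate 3 had only 5127 probes well above background, and its negative-control spots read 4.23 log2 units. No 24 h difference is given without that array.

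The spike-in RNAs, 10 sequences of known relative amount added to every sample and printed at 20 spots each, gave a reading of each array that owes nothing to the liver. Against the mean ladder of the 14 control arrays of the series, the ladder of exposed replicate 1 had a slope of 1.19 and spanned 13.20 log2 units from its dimmest to its brightest member. The other 9 arrays had slopes of 0.97 to 1.03 and spans of 9.80 to 10.41. Distances between bright and dim features were thus wider on that array in RNA that did not come from the fish. The probes themselves ran the same way: over those well above background on all 10 arrays, the slope against the mean of the control arrays, an array itself left out of that mean, was 1.14 on exposed replicate 1 and 0.89 to 1.04 on the other 9. How much of any single probe's value this stretch makes up was not tested. The ladder of exposed 72 h replicate 4 had a slope of 1.15 and a span of 13.17.

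**Figure D1:**
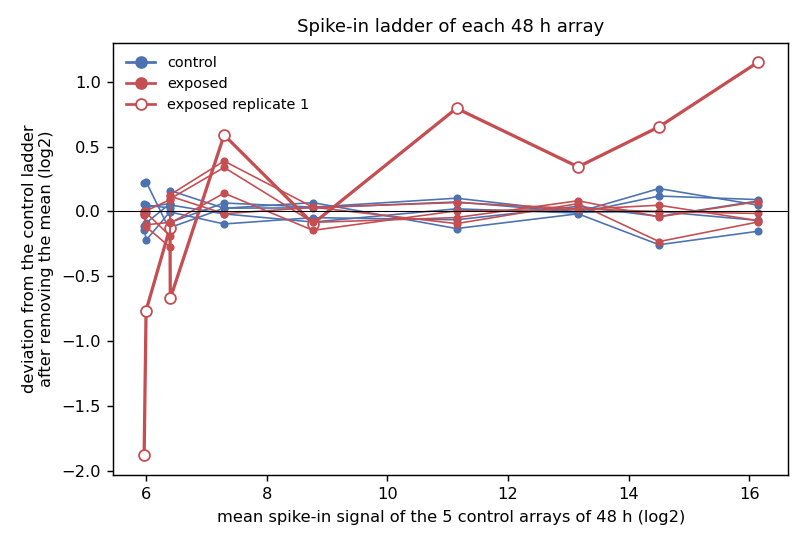
Deviation of each array of 48 h from the mean spike-in ladder of the 5 control arrays (vertical axis, log2, each array's own mean removed) against the mean ladder itself (horizontal axis, log2). The open circles of exposed replicate 1, whose ladder spanned 13.20 log2 units, leave the other 9 arrays, which spanned 9.80 to 10.41.

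No probe passed the test for phenanthrene against control at 48 h. Of 11492 probes tested, 0 had an adjusted p under 0.05 with limma, a linear model with a shared estimate of variance, and Benjamini-Hochberg adjustment, and 0.317 was the smallest value reached. Before adjustment, 488 probes (4.25% of those tested) lay under 0.05. Of the 488, 173 were higher (1.51% of those tested) and 315 lower (2.74%) in exposed liver. That split depended on how arrays were scaled: quantile normalization gave 253 higher and 270 lower, median scaling 257 and 211, the deposited values of the authors' table gave 300 and 254, and scaling to the spike-ins 468 and 11. Against the 75th percentile, median scaling shifted the difference of every probe by 0.15 and spike-in scaling by 0.66 log2 units. The split also depended on single arrays, with 265 higher and 229 lower without exposed replicate 3, and 206 and 642 without exposed replicate 2. Exposed 72 h replicate 4 enters the 48 h test only through the shared variance. Without it 722 probes lay under 0.05, 210 higher and 512 lower, and the smallest adjusted p in limma was 0.283. A direction for the liver as a whole therefore could not be given.

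With exposed replicate 1 left out, again 0 probes passed the adjusted threshold with limma and Benjamini-Hochberg adjustment and the smallest value was 0.192. Before adjustment, 347 probes (3.02%) lay under 0.05, 128 higher (1.11%) and 219 lower (1.91%). The fits with and without this array shared 219 of these probes, which is 44.9% of the 488 and 63.1% of the 347. All 488 kept their sign when the array was left out. This was close to ensured, since they were chosen by p with that array and the 2 fits share all other arrays.

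Over all tested probes the median log2 difference, exposed minus control, was -0.082, with 5th and 95th percentiles of -1.08 and 0.83. For 1137 probes (9.89%) the difference was over 2-fold in either direction, although none passed the test, and without exposed replicate 1 there were 982 (8.55%). The 95% confidence interval lay wholly within a 2-fold change for only 20.8% of probes. For most probes the data therefore neither showed a change nor bounded it below 2-fold. Precision was better where signal was strong: of the 6907 probes well above background on all 10 arrays with no left-out spot, 31.4% had an interval within 2-fold, against 4.84% of the other 4585.

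The brightly measured probes also had fewer large differences. Among those 6907, the median difference was -0.016 and 369 (5.34%) differed by over 2-fold. Before adjustment 257 of them (3.72%) lay under 0.05, 120 higher and 137 lower. Among the other 4585, the median was -0.23, 768 (16.8%) differed by over 2-fold, and 231 (5.04%) lay under 0.05 before adjustment, 53 higher and 178 lower. The excess of lower over higher calls was thus larger in the second class, and the gap between the classes narrowed without exposed replicate 1. Without that array 187 of the 6907 (72 higher, the rest lower) and 160 of the 4585 (56 higher, 104 lower) lay under 0.05, and the medians were -0.064 and -0.11. The median of probes not well above background was -8.12 log2 units on exposed replicate 3 and -6.92 to -5.39 on the other arrays of 48 h. Exposed minus control, this median differed by -0.45, and by -0.10 without exposed replicate 3. How far this makes up the values of the second class was not tested.

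Probes were also divided into 3 equal classes of mean signal. The median difference was -0.24 in the dimmest 3831 probes, -0.096 in the middle 3830 and 0.033 in the brightest 3831. With exposed replicate 1 left out these medians were -0.13, -0.047 and -0.070. In the brightest class 83 probes were higher and 63 lower at an unadjusted p under 0.05. Without the array 38 were higher and 58 lower. With the array such probes were 3.81% of the class, against 4.25% of all tested probes, and without it 2.51% against 3.02%. Among all tested probes, 1.51% were higher and 2.74% lower with the array. With scaling to the 75th percentile, the positive median of this class and its excess of higher calls were not kept without exposed replicate 1. Median scaling shifts every difference by 0.15 log2 units, more than the size of the 0.033 and -0.070 medians. The class was not tested under other scalings or with another array left out, so neither sign of its median is settled. By kind of identifier, 384 of 9487 contig probes (4.05%) and 104 of 1971 gi probes (5.28%) had an unadjusted p under 0.05. Without exposed replicate 1 the counts were 280 (2.95%) and 66 (3.35%). The median difference was -0.040 for contigs and -0.29 for gi numbers with that array and -0.048 and -0.23 without it, and the difference between the 2 kinds was not tested.

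**Figure D2:**
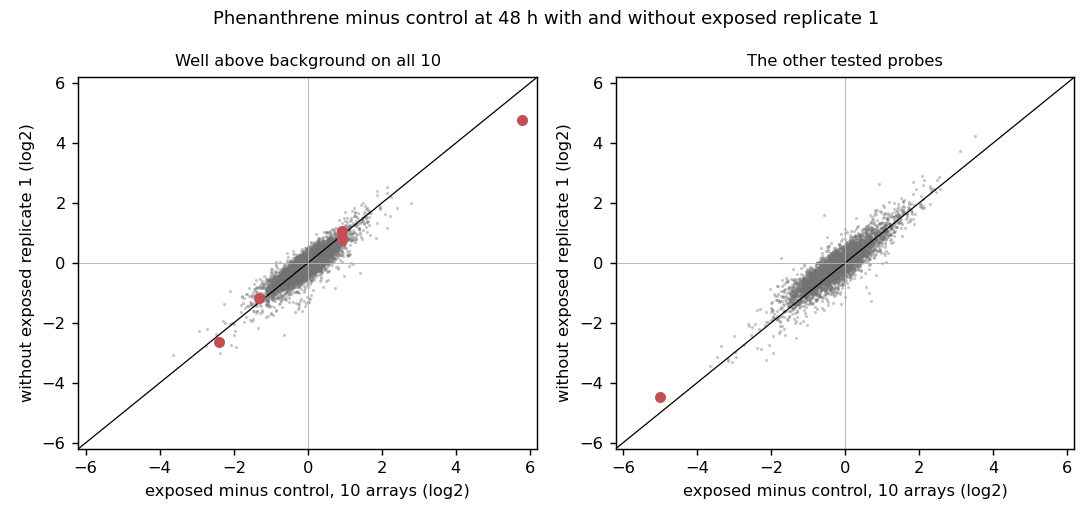
Log2 difference of exposed minus control at 48 h over all 10 arrays (horizontal axis) and without exposed replicate 1 (vertical axis) for the 6907 tested probes well above background on all 10 arrays with no left-out spot (left) and the other 4585 (right). Each grey point is a probe, and red points are the named probes and those with the most positive and most negative difference. The class on the right spreads wider along the line of equality.

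The 4 probes named here are the 2 higher and the 2 lower with the smallest unadjusted p among probes measured well above background on all 10 arrays. They are given as candidates chosen by p, and none passed the test. The 48 h values that chose them also give their differences, which such a choice tends to enlarge. The values of the 4 probes are log2 signals relative to each array's 75th percentile, in the order of replicates 1 to 5.

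Probe UF_Ppr_AF_114724, for contig FJU.13926.C1, read 0.05, -0.09, -0.04, -0.22 and -0.09 on the control arrays and 1.31, 0.50, 1.13, 0.72 and 0.58 on the exposed arrays. At 48 h every exposed array lay above every control array, and the controls of that time kept within a narrow band. The means were -0.08 ± 0.10 and 0.85 ± 0.35 (SD, n = 5 each), a difference of 0.92 (SE 0.23, 95% interval 0.45 to 1.40) or 1.90-fold. With limma the unadjusted p was 0.000484 and the Benjamini-Hochberg adjusted p 0.953. The difference was 0.81 without exposed replicate 1, and 0.97 and 1.08 within slides 3 and 4. Scaling to the spike-ins raised it to 1.58, and with normexp background correction it was 0.79.

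Probe UF_Ppr_AF_112475, for contig FJU.5267.C1, read -0.48, -1.41, -1.46, -0.87 and -0.86 on the control arrays and -0.60, 0.17, 0.18, 0.04 and -0.21 on the exposed arrays. The groups overlapped through 1 pair only, since exposed replicate 1 lay below control replicate 1. The means were -1.01 ± 0.42 and -0.08 ± 0.33 (SD, n = 5 each), a difference of 0.93 (SE 0.25, 95% interval 0.41 to 1.45) or 1.91-fold, with an adjusted p of 0.953 in limma. Without exposed replicate 1 the difference was 1.06 (SE 0.25) and the groups did not overlap, with an adjusted p of 0.996 in limma. Within slides 3 and 4 it was 1.22 and 0.97, and scaled to the spike-ins 1.59. With normexp background correction it was 0.65, the lowest of the alternatives.

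Probe UF_Ppr_AF_100779, for contig FJU.7243.C2, had the smallest p of all probes tested. It read -1.90, -1.06, -1.84, -1.74 and -1.16 on the control arrays and -3.07, -3.33, -6.07, -3.92 and -3.34 on the exposed arrays. Every exposed array lay below every control array, and exposed replicate 3 lay far below the other exposed arrays. In processed signal the exposed arrays read 7.63 to 39.8 units and the controls 42.3 to 155.6. The means were -1.54 ± 0.40 and -3.95 ± 1.22 (SD, n = 5 each), a difference of -2.41 (SE 0.47, 95% interval -3.38 to -1.43), or 5.30-fold lower. With limma the unadjusted p was 2.75e-05 and the Benjamini-Hochberg adjusted p 0.317. The difference was -2.63 without exposed replicate 1, -1.88 without exposed replicate 3, and -1.75 and -3.54 within slides 3 and 4. With normexp background correction it was -1.16.

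Probe UF_Ppr_AF_107913, for contig FJU.10823.C2, read -2.06, -1.06, -1.27, -0.67 and -1.89 on the control arrays and -3.27, -2.02, -3.40, -2.83 and -2.05 on the exposed arrays. Exposed replicates 2 and 5 lay just above control replicate 1, and the other 3 exposed arrays lay below all controls. The means were -1.39 ± 0.58 and -2.71 ± 0.65 (SD, n = 5 each), a difference of -1.33 (SE 0.35, 95% interval -2.05 to -0.60), or 2.51-fold lower, with an adjusted p of 0.953 in limma. It was -1.19 without exposed replicate 1 and -0.86 with normexp. Scaling to the spike-ins left it at -0.67.

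At 24 h and 72 h the same probes gave smaller differences. The arrays of those times enter the shared variance behind the p-values that chose the probes, but not the 48 h differences. For UF_Ppr_AF_114724 the difference was -0.24 (SE 0.25) at 24 h and 0.10 (SE 0.25) at 72 h, and for UF_Ppr_AF_112475 it was -0.44 and -0.18 (SE 0.27 each). Both probes that were higher at 48 h were thus below or near their controls at the other times. The highest controls of UF_Ppr_AF_114724 were 0.79 at 24 h and 0.29 at 72 h, and those of UF_Ppr_AF_112475 -0.41 and -0.05. All but the 0.29 lay inside the exposed range of the probe at 48 h. For UF_Ppr_AF_100779 the difference was -0.65 at 24 h and -0.50 at 72 h (SE 0.50 each), in the same direction as at 48 h. For UF_Ppr_AF_107913 it was -0.04 and -0.16 (SE 0.37 each). The lowest controls of UF_Ppr_AF_100779 were -3.16 at 24 h and -3.23 at 72 h, inside its exposed range of 48 h. Those of UF_Ppr_AF_107913 were -1.98 and -2.03, at the edge of its exposed range. These 2 probes were not well above background on exposed 24 h replicate 3, an array of poor detection that stays in the 24 h values. The 48 h difference minus the mean of the other times was 0.996 (SE 0.29), 1.24 (SE 0.32), -1.83 (SE 0.59) and -1.22 (SE 0.44) for the 4 probes in the order named. The lowest of the 4 adjusted p-values for that contrast was 0.876 in limma, so none of them was shown to be particular to 48 h. Without exposed 72 h replicate 4 the 72 h differences were 0.04, -0.21, -0.36 and 0.13, and the lowest adjusted p of the contrast was 0.796 in limma.

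**Figure D3:**
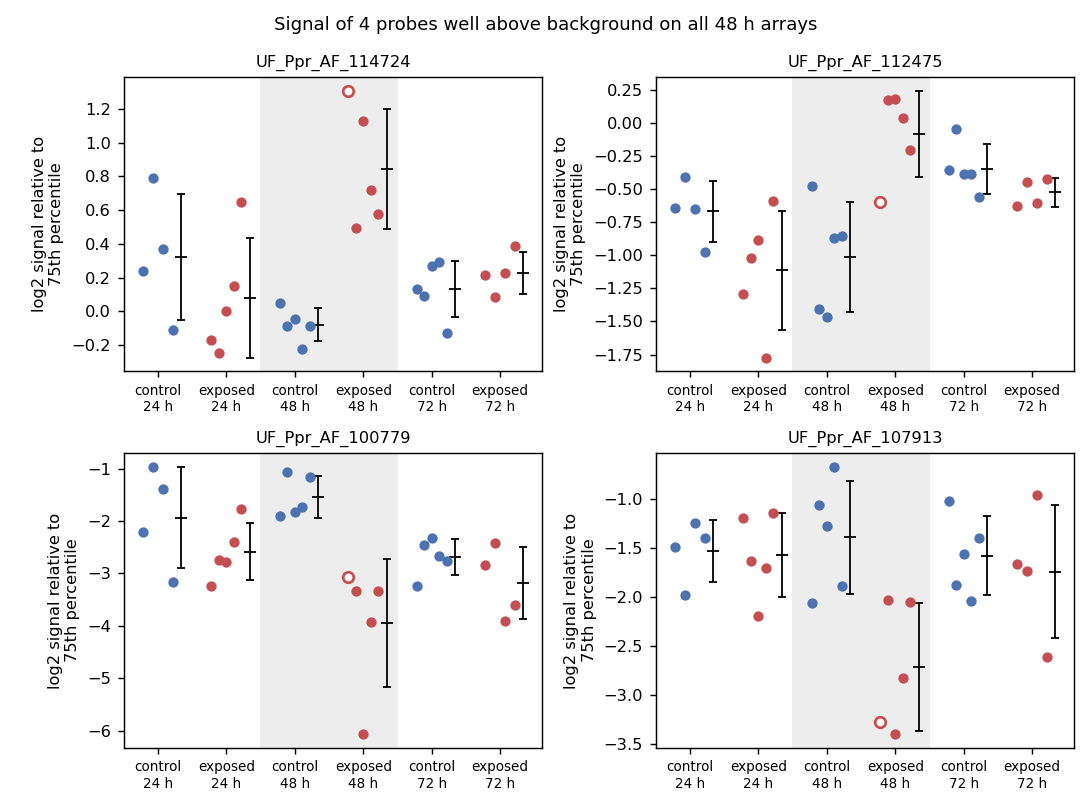
Log2 signal relative to the array's 75th percentile (vertical axis) of the 4 named probes on the arrays of each group (horizontal axis), with group mean and SD as black bars, the 48 h groups shaded and exposed 48 h replicate 1 as an open circle. The exposed arrays of 48 h lie at 0.50 to 1.31 for UF_Ppr_AF_114724, above all controls of that time, and at -6.07 to -3.07 for UF_Ppr_AF_100779, below all of them.

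Across all tested probes, 0 passed the test of a 48 h effect that differed from the mean of the 24 h and 72 h effects, and in limma 0.876 was the smallest adjusted p. Before adjustment 369 (3.21%) lay under 0.05, 187 with a more positive and 182 with a more negative effect at 48 h. Leaving out exposed replicate 1 gave 414, and without exposed 72 h replicate 4 there were 465, and in both fits 0 passed after adjustment in limma.

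The exposed and control values of 78 probes did not overlap at 48 h, 0.69% of the 11311 tested probes with a value on all 10 arrays. Of these 30 were higher (0.265%) and 48 lower (0.424%) in exposed liver. Well above background on all 10 arrays were 57 of the 78 (27 higher, 30 lower), and 6907 of the 11311. The 57 were 0.825% of the 6907. The 30 higher probes differed by 0.25 to 2.25 log2 units with a median of 0.79. The 48 lower probes differed by 0.36 to 4.99 with a median of -1.21. In the absence of exposed replicate 1, 154 of 11478 (1.34%) did not overlap, 69 higher (0.601%) and 85 lower (0.741%), and with 4 arrays on 1 side fewer values have to fall apart.

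Those 78 probes can be followed on the arrays of other times. Of the 30 higher at 48 h, 8 were higher and 22 lower at 24 h, and 20 were higher and 10 lower at 72 h. Their median differences were -0.29 and 0.27 at these times, against 0.79 at 48 h. In the same direction, 0 of the 30 had an unadjusted p under 0.05 in limma at 24 h and 1 at 72 h, against 0.74% and 2.05% of all tested probes that were higher by that measure at these times. Of the 48 lower at 48 h, 25 were higher and 23 lower at 24 h, and 22 were higher and 26 lower at 72 h, with medians of 0.02 and -0.12. In the same direction, 0 of these 48 had an unadjusted p under 0.05 in limma at 24 h and 3 at 72 h, against 1.71% and 3.21% of all tested probes that were lower. In the opposite direction to 48 h, 1 of the 30 and 2 of the 48 were under 0.05 at 24 h, and 1 and 0 at 72 h. In either direction the shares of all tested probes were 2.45% at 24 h and 5.26% at 72 h. Over all tested probes, 43.0% were higher at 24 h and 46.2% at 72 h. Without exposed 72 h replicate 4, 17 of the 30 were higher at 72 h and 21 of the 48 lower, with medians of 0.03 and 0.07. In that fit 54.2% of all tested probes were higher at 72 h. There 1 of the 30 and 0 of the 48 had an unadjusted p under 0.05 in limma in the same direction. In the opposite direction there were 0 and 2. Of all tested probes, 1.56% were then under 0.05 and higher, 1.12% under 0.05 and lower, and 2.68% in either direction. The probes whose groups did not overlap at 48 h thus lay on both sides of their controls at the other times.

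Among the higher of these probes that were well above background on all 10 arrays, the largest difference was 2.25. That probe read -1.82 to -0.46 on the control arrays and 0.62 to 1.99 on the exposed arrays. The SDs were 0.51 on the control and 0.53 on the exposed arrays (n = 5 each). Over the probes well above background on all 10 arrays, the median SDs were 0.48 and 0.73. The groups lay more than 1 log2 unit apart. Its adjusted p was 0.953 in limma. At 24 h its difference was -2.11 and at 72 h -0.39 (-0.28 without exposed 72 h replicate 4), and its contrast of 48 h with the other times had an unadjusted p of 0.000512 and an adjusted p of 0.876 in limma. The probe was chosen for this size after its values were seen.

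The extreme differences came from probes that varied between arrays by far more than most. Of 76 probes over 4-fold apart, 33 were higher and 43 lower. The groups of 8 of the 76 did not overlap, against 0.69% of all tested probes with a value on all 10 arrays. An unadjusted p under 0.05 in limma was found for 42 of the 76, against 4.25% of all tested probes. A choice by size of difference raises both shares by itself. The larger of the 2 group SDs of the 76 probes had a median of 2.37, against 0.92 over all tested probes. A choice by size of difference also favours probes with large SDs on the same arrays. Of the 76, 23 were well above background on all 10 arrays with no left-out spot, against 6907 of the 11492 tested probes. Without exposed replicate 1, 53 of the 76 remained over 4-fold apart, among 83 in that fit.

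The probe with the most positive difference of all, chosen after its values were seen, read -3.37, -2.10, -0.78, 3.89 and -3.07 on control arrays and 8.75, 5.65, -3.24, 6.59 and 5.71 on exposed arrays. It was bright on control replicate 4 and on 4 exposed arrays, and dim on exposed replicate 3 and the other 4 controls, so the groups overlapped. The difference was 5.78 (SE 2.44, 95% interval 0.76 to 10.8), with an adjusted p of 0.953 in limma, and it was 4.76 without exposed replicate 1, 8.64 on slide 3 and 1.26 on slide 4. At 24 h the difference was -3.35 and at 72 h -0.23, or -0.53 without exposed 72 h replicate 4. Control arrays of 24 h alone spanned -3.36 to 6.31 and those of 72 h -3.62 to 5.67, so unexposed liver covered most of the range seen after exposure.

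The probe with the most negative difference, also chosen after its values were seen, read 0.72, 0.66, 0.83, 0.97 and -0.70 on control arrays and -6.53, -5.81, -2.70, -1.35 and -6.09 on exposed arrays. The groups did not overlap, and the probe was well above background on 5 control and 2 exposed arrays. The difference was -4.99 (SE 1.30, 95% interval -7.66 to -2.32), with an adjusted p of 0.953 in limma. As 3 exposed values lay at background, their log2 values and the size of the difference depend on the background correction, and with normexp it was -2.56. It was -4.48 without exposed replicate 1 and -2.16 on slide 4, where both exposed arrays were well above background. On slide 3 neither exposed array was, and no size is given there. At 24 h and 72 h the differences were 2.96 and 0.92 (1.52 without exposed 72 h replicate 4), opposite to 48 h. These sizes too rest partly on values at background. At 24 h the probe was well above background on 2 of 4 control and 4 of 5 exposed arrays. At 72 h it was so on 3 of 5 control and all 4 exposed arrays. Here too the controls of other times were spread widely, from -7.28 to -0.29 at 24 h and from -5.90 to 0.23 at 72 h, the lowest values being at background.

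**Figure D4:**
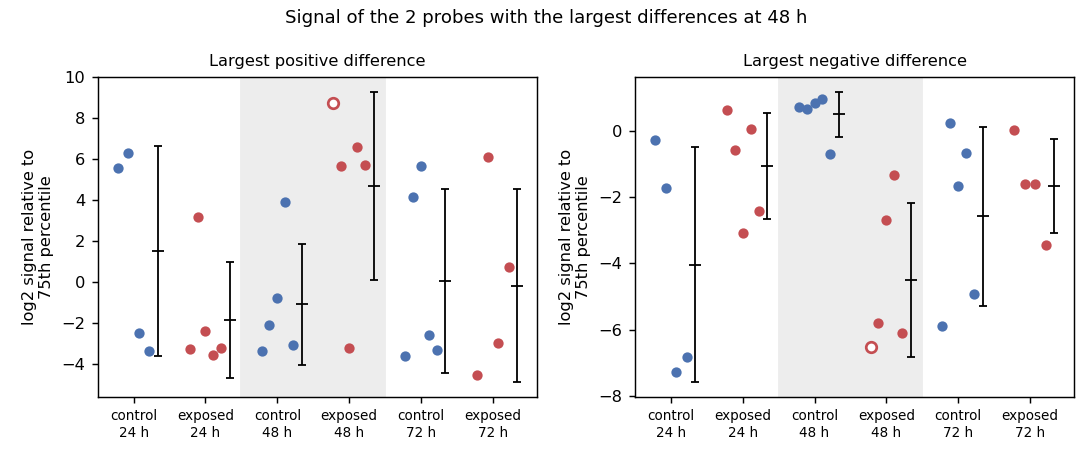
Log2 signal relative to the array's 75th percentile (vertical axis) of the probes with the most positive (left) and most negative (right) difference at 48 h, by group (horizontal axis), with mean and SD as black bars, the 48 h groups shaded and exposed 48 h replicate 1 as an open circle. Control arrays of 24 h span -3.36 to 6.31 on the left and -7.28 to -0.29 on the right.

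Detection gave no transcript that was present in 1 group and absent from the other. Of 15208 probes, 7047 were well above background on all 10 arrays and 1674 on none. No probe was well above background on all 5 arrays of 1 group and on 0 of the other. The nearest cases were 4 probes on 0 control and 4 exposed arrays, 1 probe on 1 control and 5 exposed arrays, and 1 probe on 0 exposed and 4 control arrays. For the 5 probes with a group at 0, arrays of that group were raised to the array's lowest signal well above background where they lay below it. The folds were then 1.87 and 1.29 in exposed liver for 2 probes and 1.58 in control liver for 1, with limma adjusted p-values of 0.953. These are rough sizes and not bounds, since the mean of the other group includes an array not well above background. For the other 2 no fold could be given. Without exposed replicate 1, again 0 probes were on all arrays of 1 group and on 0 of the other. In all, 2691 probes were well above background on more exposed than control arrays, 2065 on fewer and 10452 on equally many. The mean number of such probes on an array differed by 186, exposed minus control (exact permutation p = 0.754). With 1 array left out this difference ran from -304 to 602, so the split gives no direction.

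The brightest probes showed how far the result rested on single arrays. Among the 20 brightest probes of control liver at 48 h, which had control means of 9.47 to 10.9 log2 units above the 75th percentile, the differences ran from -0.75 to 0.20 with a median of -0.080. Choosing probes by their control means can by itself lower these differences. Of the 20, 8 were higher in exposed liver, and the lowest unadjusted p in limma was 0.235. Without exposed replicate 1, 0 of the 20 were higher, the differences ran from -1.34 to -0.10 with a median of -0.36, and the lowest unadjusted p in limma was 0.0257. Over these 20 probes exposed replicate 1 lay above the control mean by a median of 1.19, and exposed replicate 3 below it by a median of -1.20. Exposed replicate 1 also had 8 saturated spots, which were kept, against 0 on the other arrays of 48 h. Whether any of them belong to these 20 probes was not tested.

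Arrays within the exposed group differed from each other more than control arrays did. The median SD over all tested probes was 0.84 among exposed and 0.62 among control arrays, and the exposed SD was the larger for 70.2% of probes. Without exposed replicate 1 the exposed median was 0.69, and the exposed SD was larger for 57.7%. The median distance of an array from the others of its group was 0.62, 0.57, 0.45, 0.42 and 0.47 for control replicates 1 to 5 and 0.98, 0.59, 0.94, 0.42 and 0.50 for exposed replicates 1 to 5. Exposed replicates 1 and 3 stood out, and the other 3 exposed arrays lay within the control range. A two-sided permutation test of the group means of this distance gave p = 0.214, where 5 against 5 arrays cannot go below 0.00794. The distances were not recomputed when the labels were shuffled, and distances within a group depend on each other. This p is therefore approximate, and no conclusion is drawn from it.

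Whole profiles did not sort by exposure. The mean correlation of log2 signal was 0.897 over the 25 pairs of an exposed and a control array and 0.895 over the 20 pairs within groups. The lowest was 0.771, between control replicate 2 and exposed replicate 3, and the highest 0.948, between control replicate 4 and exposed replicate 5. The first principal component held 30.1% of the variance and ran from -123.9 for exposed replicate 3 to 79.1 for control replicate 2. The second held 21.8% and set exposed replicate 1, at 138.2, apart from the other 9, at -41.1 to 1.13. Exposed replicates 2, 4 and 5 fell within the span of the controls on the first component.

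**Figure D5:**
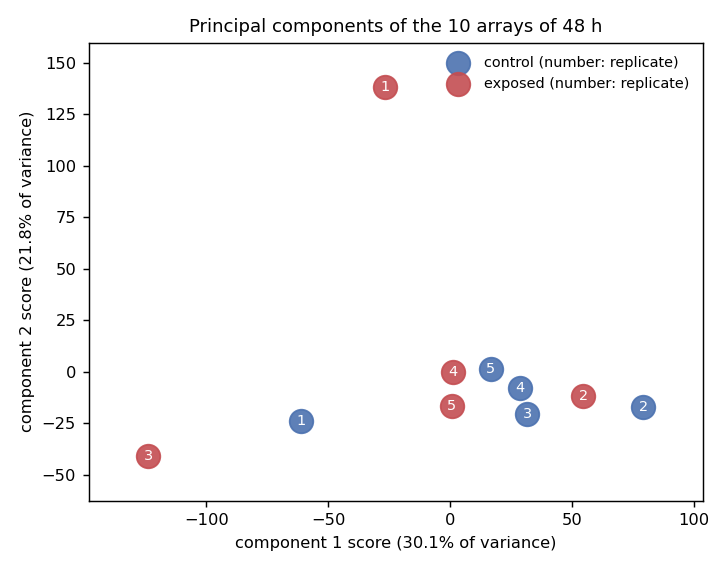
Scores of the 10 arrays of 48 h on the first (horizontal, 30.1% of variance) and second (vertical, 21.8%) principal component of 11311 probes. The numbers are replicates: exposed replicate 3 lies at -123.9 on the first component and exposed replicate 1 at 138.2 on the second, while the other 3 exposed arrays lie among the controls.

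Measures of the arrays themselves did not separate the groups after adjustment. Of 11 such measures, compared by two-sided exact permutation tests, the adjusted p was 0.864 for 10 and 0.968 for the negative-control spots. The distance within a group is among them, and its p is approximate, as stated above. The measure that bears most directly on scaling is the 75th percentile of signal relative to the spike-ins. It read -1.62, -0.63, -2.58, -2.29 and -0.80 log2 units on the control arrays and -1.28, -1.08, -0.03, -0.81 and -1.43 on the exposed arrays. The groups overlapped, with only exposed replicate 3 above every control array. The difference was 0.66 (exact permutation p = 0.206), 0.75 without exposed replicate 1 (exact p = 0.222), 0.42 on slide 3 and 1.13 on slide 4. This difference is the shift that turned the split of unadjusted calls under spike-in scaling, and it was itself not distinguishable from the spread between arrays.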

How the data were processed

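Arrays were read with Agilent Feature Extraction 10.7.1.1, per the file headers. The deposited processed signal is a fluorescence intensity on a linear scale from which the scanner software had removed background. A second deposited table of the authors' log2 values, of unstated normalization, served as an alternative; 1 of its columns belongs to no sample and was not used.

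For each array, log2 processed signal of the 15208 non-control probes was reduced by its 75th percentile. The 779 spots of the series marked non-uniform or as population outliers were omitted, unlike saturated ones. A probe was tested where some group of the 6 had 3 or more arrays well above background. The 28 arrays were fitted with limma 3.58.1 in R 4.3.3 (6 group means, 22 residual degrees of freedom), with two-sided moderated tests and Benjamini-Hochberg adjustment over all tested probes at 0.05. Values per array, such as the percentile of signal, were compared by exact permutation tests over the 10 arrays (scipy 1.17.1), adjusted over 11 measures. Of these, 5 (the spike-in level and slope, the percentile relative to the spike-ins, the median of dim probes and the distance between arrays) were added after seeing the data. The fit was tested on simulated data.

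The arrays, the list of 36 marker symbols and the rule for naming probes were chosen with earlier results of these data known. As no probe has a gene name, the rule took the 2 higher and 2 lower probes with the smallest unadjusted p among those well above background on all 10 arrays of 48 h with no left-out spot. Alternatives were other scalings, background corrections (normexp with offset 50, on the median spot signal) and filters, slide as a block or by slide, array weights, a trended and robust prior, only the 10 arrays, the authors' table and each array left out. Scaling to the spike-ins and leaving out exposed 72 h replicate 4 were chosen after seeing the data. Replicate numbers follow the order of deposit. The number of arrays limits the precision.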

Additional observations from a re-analysis of the deposited data

Results flagged for a closer look

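Values per array were searched for an array whose gap to its nearest neighbour was large for the range of its group of 5, by Dixon's criterion. So were the signals of the named probes and of those with the most positive and most negative difference. Chance meets it in about 1 in 20 groups that are independent and unselected, which these were not. The raised bright corners of exposed replicate 1 were known before the search, and spike-in slope and span describe the same ladder. The probes had been chosen by their 48 h values. The count of groups is therefore not evidence of an excess over chance. Of 42 groups tested, 9 met the criterion. Of these, 5 concern exposed replicate 1: its bright-corner spots at 17.87 log2 units, its 201 non-uniform spots, its spike-in slope of 1.19, its spike-in span of 13.20 log2 units and its score of 138.2 on the second principal component. Control replicate 4 had 7 non-uniform spots, against 0 to 2 on the other control arrays. Exposed replicate 3 read -6.07 for UF_Ppr_AF_100779 and -3.24 for the probe with the most positive difference. Control replicate 5 read -0.70 for the probe with the most negative difference. The spike-in ladder, which lies outside the liver measurement, also differed beyond all control arrays of the series on exposed replicate 1, at 13.20 against 9.80 to 10.41 log2 units. No explanation of these values was tested.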

How the results depend on the processing

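No probe passed the adjusted threshold at 48 h under any alternative run with limma. The contrast of 48 h with the other times also had 0, over the alternatives of scaling (quantile, median), normexp, slide as a block and arrays left out; it was not run under the others. The smallest adjusted p for phenanthrene against control ranged from 0.148 to 0.999 over all alternatives. Against 488 probes at an unadjusted p under 0.05, there were 299 with normexp, 294 with only the 7047 probes well above background on all 10 arrays (fewer probes tested), 919 within slide 3 and 769 with array weights. Leaving out 1 array gave 304 to 848, from 304 when control replicate 2 was absent to 774 for control replicate 1 and 848 for exposed replicate 2; the cause was not tested. Against 0.69% of probes without overlap, there were 1.34% without the 3 arrays of doubtful quality, of which only exposed replicate 1 is of 48 h. There were 34.1% within slide 3, 38.7% within slide 4 and 1.03% to 1.95% with 1 array left out. All of these used fewer arrays of 48 h. Array measures that compare an array with others, such as the distance within a group, were not recomputed when an array was left out. With 1 array left out, the differences of array measures that changed sign or moved by over 1.5 times were those of the log2 75th percentile (0.16 to 0.49), the median of dim probes (-0.72 to -0.10), the spike-in level (-0.50 to -0.12), the percentile minus the spike-ins (0.41 to 0.90), the distance within a group (0.108 to 0.247), probes well above background (-304.1 to 602.1), bright-corner spots (-0.22 to 1.67), negative-control spots (-0.28 to 0.24), non-uniform spots (-0.95 to 49.3), mean correlation (-0.0173 to 0.00098) and spike-in slope (-0.00285 to 0.0465). The named probes and those with the most positive and most negative difference kept their direction under all 26 alternatives (25 for the most negative, which had no value under 1). They were chosen by the values of the same arrays, which makes a kept direction likely. The largest higher probe without overlap was not among those followed. No paired analysis was possible because replicate numbers follow the order of deposit only.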
